A study of Mus musculus with 4 samples.

Results

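Mcm6, Ccna2 and Sesn1 are a replication gene, a cyclin gene and a stress-response gene, and all 3 were lower in C2C12 cells given the compound labelled Bex than in cells without it. The 3 genes were chosen by symbol from the authors' deposited table of transcript clusters that differed by 1.5-fold or more between these same arrays. Each had 1 cluster there, so they make up 3 of its 559 clusters and 3 of the 536 genes with a single symbol in it, against 35557 clusters in the value table. C2C12 is a mouse myoblast line, that is, muscle precursor cells that stop dividing and fuse into myotubes in culture. The Bex group held 2 arrays of confluent cells kept for 48 h in a basal medium for adipogenesis with 10 µM Bex, and the Ctrl group held 2 arrays of cells kept as long in that medium alone. The labels do not spell the compound out. It is known from the study to be bexarotene, which activates retinoid X receptors. Nothing in the labels ties an array to either of the 2 batches of cells they mention, so the spread between arrays of a group may be partly technical. Array medians were 5.77 and 5.76 (log2) for Bex and 5.78 and 5.80 for Ctrl.

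A cell licenses its DNA for replication by loading a ring of 6 related Mcm proteins onto each origin, and Mcm6 is a subunit of that ring, which later unwinds DNA at the fork. Cyclin A, the product of Ccna2, activates its kinase partners during DNA synthesis and on the way into mitosis, and transcripts of both genes are abundant in dividing cells and scarce in resting ones. E2F transcription factors, held back by the retinoblastoma protein in resting cells, drive many genes of this kind. Sestrin 1, the product of Sesn1, belongs to a small family induced by stress. It is known as a target of p53, which halts division after damage, and of FoxO factors, and it restrains the growth-promoting kinase complex TORC1. The gene thus stands on the side of arrest, whereas Mcm6 and Ccna2 stand on the side of division.

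The 250 bases before the annotated start of transcription are shown because the windows carry letters known from the promoters of replication and stress genes. RefSeq windows of build GRCm38.p6 were matched by symbol for 2 of the 3 genes, 1 start for Mcm6 and 2 for Sesn1, and Ccna2 is named without one. They are written 5′ to 3′ on the gene's strand. Capitals mark E2F letters (TTTCGCGC or TTTGGCGC) and CCAAT boxes (CCAAT) in Mcm6, and CCAAT boxes and the p53 consensus decamer in Sesn1, on either strand, so that a CCAAT box on the opposite strand reads ATTGG. The window of Mcm6 lies at chr1:128359706-128359955 on the minus strand, and those of Sesn1 at chr10:41810324-41810573 (start 1) and chr10:41887189-41887438 (start 2) on the plus strand.
Mcm6: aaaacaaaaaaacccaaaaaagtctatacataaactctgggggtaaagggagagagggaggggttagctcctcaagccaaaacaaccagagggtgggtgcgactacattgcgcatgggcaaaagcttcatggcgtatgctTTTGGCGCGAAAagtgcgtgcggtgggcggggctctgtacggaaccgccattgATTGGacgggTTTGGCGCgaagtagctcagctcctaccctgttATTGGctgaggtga
Sesn1, start 1: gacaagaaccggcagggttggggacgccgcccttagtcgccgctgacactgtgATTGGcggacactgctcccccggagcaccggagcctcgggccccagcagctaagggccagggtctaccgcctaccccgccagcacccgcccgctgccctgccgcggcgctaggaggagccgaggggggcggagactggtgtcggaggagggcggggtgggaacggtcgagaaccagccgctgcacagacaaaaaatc
Sesn1, start 2: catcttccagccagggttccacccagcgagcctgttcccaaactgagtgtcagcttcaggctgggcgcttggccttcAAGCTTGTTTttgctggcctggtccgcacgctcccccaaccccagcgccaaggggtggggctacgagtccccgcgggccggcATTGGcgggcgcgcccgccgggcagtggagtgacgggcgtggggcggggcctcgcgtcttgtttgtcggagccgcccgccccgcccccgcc

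The Mcm6 window held the E2F letters 3 times, at bases -110 to -103 and -47 to -40 on the gene's strand and at -106 to -99 on the opposite strand, where the match overlaps the first of these. Among 32851 RefSeq windows of this length, 0.654% held these letters at least once and 0.0183% more than once. CCAAT boxes lay at -57 to -53 and at -14 to -10, both on the opposite strand. Neither Sesn1 window held the E2F letters. The p53 consensus decamer occurred once, at -173 to -164 before start 2, where it is a single decamer and not the tandem that p53 is known to bind, and 7.13% of all windows held it. Each Sesn1 window held 1 CCAAT box, at -197 to -193 and at -91 to -87, as did 33.8% of all windows at least once. GC boxes (GGGCGG), which are common in promoters of housekeeping genes, were counted as well. They occurred 4 times in each Sesn1 window and once in that of Mcm6, with 32.7% of all windows holding any, and those before start 2 overlap in part. GC content was 70.0% and 71.2% in the Sesn1 windows and 52.4% in that of Mcm6, which equals the median of all windows. The letters of the cell cycle homology region (TTTGAA or TTCGAA), present in 17.1% of windows, were in none of the 3. The FoxO letters (TGTTTAC) were absent too before each start, and lay once after start 1 of Sesn1, at bases 23 to 29, outside the stretch shown. They occurred in 3.65% of windows when the 50 bases after the start were included. These are matches of letters, not binding sites.

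**Figure D1:**
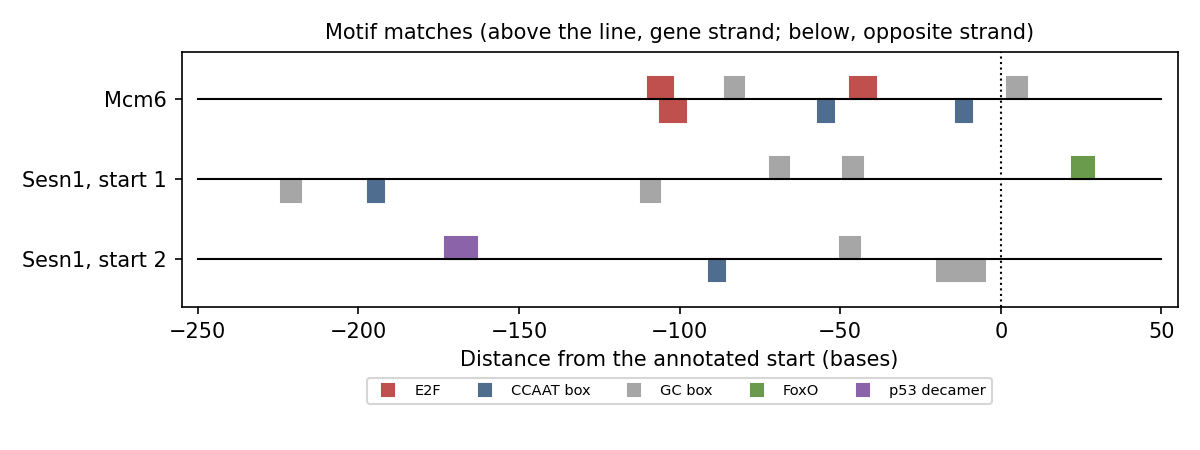
Positions of motif matches around the annotated start of Mcm6 and both starts of Sesn1, with the distance from the start in bases on the horizontal axis and 1 line per window; boxes above a line are on the gene's strand and those below it on the opposite strand. The 3 E2F matches all lie in the Mcm6 window, and the FoxO match of Sesn1 lies after the start.

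Mcm6 had values of 7.18 and 6.98 (log2) on the Bex arrays, against 8.05 and 8.06 on the Ctrl arrays. Both Bex arrays lay well under both Ctrl arrays, which were nearly equal, and the groups did not overlap. The mean was 7.08 ± 0.14 in Bex cells and 8.05 ± 0.01 in Ctrl cells (SD, n = 2 each). The log2 difference was -0.97 ± 0.10 (SE), with a 95% interval from -1.27 to -0.67, so that Bex cells held 51.0% of the Ctrl signal on the linear scale.

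Sesn1 had values of 8.93 and 8.70 (log2) on the Bex arrays, against 9.69 and 9.70 on the Ctrl arrays. Here too the Ctrl arrays were nearly equal, the second Bex array was the lowest of the 4, and the groups did not overlap. The mean was 8.81 ± 0.16 in Bex cells and 9.69 ± 0.01 in Ctrl cells (SD, n = 2 each). The log2 difference was -0.88 ± 0.11 (SE), with a 95% interval from -1.20 to -0.57, or 54.3% of the Ctrl signal on the linear scale. The stress and arrest gene was therefore lower alongside the division genes and not opposite to them.

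Ccna2 had values of 9.21 and 9.28 (log2) on the Bex arrays, against 9.83 and 9.80 on the Ctrl arrays. The groups did not overlap, and unlike in the other genes the first Bex array was the lower one. The mean was 9.24 ± 0.05 in Bex cells and 9.81 ± 0.02 in Ctrl cells (SD, n = 2 each). The log2 difference was -0.57 ± 0.08 (SE), with a 95% interval from -0.80 to -0.34, or 67.5% of the Ctrl signal on the linear scale. It was the smallest difference of the 3 genes. In bulk RNA a lower transcript share from fewer dividing cells and from less of the transcript in each cell cannot be told apart.

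**Figure D2:**
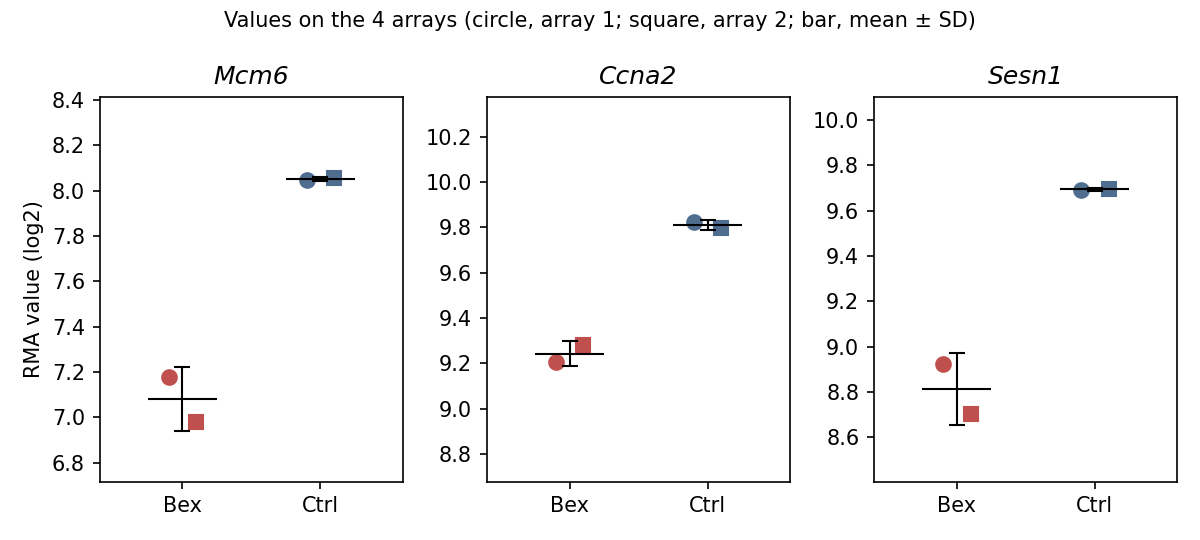
RMA values (log2) of Mcm6, Ccna2 and Sesn1 on each array, Bex left of Ctrl; circles are array 1 and squares array 2 of a group, and bars are the mean ± SD of 2 arrays. The vertical axes have the same span, and in each gene both Bex arrays sit below both Ctrl arrays.

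The authors' deposited table, whose averages come from a separate summary of the same arrays, gave Mcm6 6.99 with Bex and 7.88 without (log2), a fold change of -1.86, where the minus sign marks Ctrl over Bex. For Sesn1 the authors' deposited table gave 8.82 and 9.66, a fold change of -1.79, and for Ccna2 it gave 9.20 and 9.81, a fold change of -1.53. The value table put the same ratios of Ctrl over Bex at 1.96, 1.84 and 1.48 for Mcm6, Sesn1 and Ccna2. Ccna2 thus lay just inside the cutoff of 1.5 in one source and just under it in the other. Ordered by the fold of the authors' deposited table, Mcm6 was 60th, Sesn1 75th and Ccna2 193rd of the 212 lower clusters, ties sharing the better place. The lower clusters nearest the cutoff in the authors' deposited table had a fold change of -1.51, among them Ly6a and Il4ra, and clusters outside it cannot be named here.

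As the table that supplied the genes was cut on this very contrast, the differences above are a description and no test supports them. That both Bex arrays lay below both Ctrl arrays in all 3 genes adds nothing to this, as the groups did not overlap in 558 of the 559 clusters that the authors' deposited table holds. Both Bex arrays lay below both Ctrl arrays in 24.2% of all 35557 clusters. Over all clusters 2.82% were lower by 1.5-fold or more, and the median log2 difference was -0.01. Counted from the lowest, Mcm6 was 291st, Sesn1 392nd and Ccna2 1068th of all clusters by log2 difference. All clusters include 6669 numbered lower than any in the authors' deposited table, and log2 differences spread less widely without them. Ranks and shares without them were not computed. With Benjamini-Hochberg adjustment, limma called 0 clusters (0% of 35557) at an adjusted p of 0.05, and 4189 had an unadjusted p below 0.05. Without the low-numbered clusters the same fit called 297 of 28888, so the count of 0 depends on them. A fit whose prior variance follows the level (limma with a variance trend) called 427 clusters, or 1.20%. Fewer clusters passed the trend fit once any single array was left out, but a group then has no replicate. Whether the same clusters passed was not compared, so passing or not passing the trend fit is given below only as a description.

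**Figure D3:**
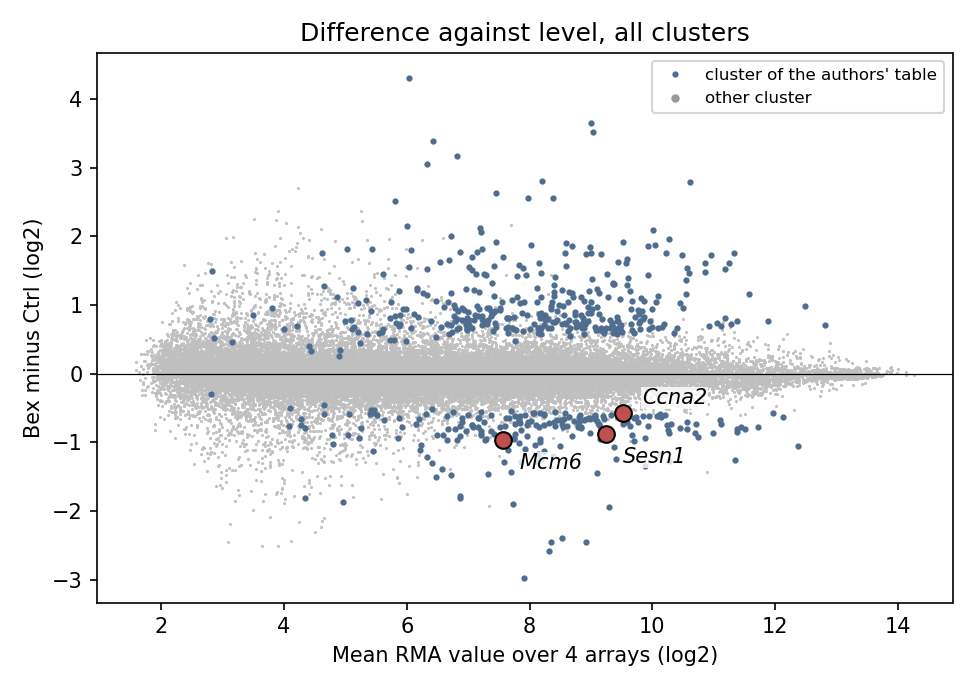
Bex minus Ctrl (log2) against the mean RMA value over the 4 arrays, with 1 point per transcript cluster; blue points are clusters of the authors' deposited table and red circles the 3 genes. Mcm6 and Sesn1 lie close together in difference at -0.97 and -0.88, and Ccna2 lies nearer to 0 at -0.57.

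The 3 genes differed in how far the 2 Bex arrays stood apart. The gap between them was 0.20 (log2) in Mcm6 and 0.22 in Sesn1, where the second array was the lower, and 0.08 in Ccna2, where the first was. Among the 1000 clusters of most similar mean value, the median gap between Bex arrays was 0.13 for Mcm6, 0.10 for Sesn1 and 0.09 for Ccna2. The gap of Sesn1 was thus wider than that of 84.5% of its neighbours in level, and those of Mcm6 and Ccna2 than 66.6% and 42.9% of theirs. Between Ctrl arrays the gaps were 0.01 for Mcm6, 0.01 for Sesn1 and 0.03 for Ccna2, wider than 4.7%, 4.5% and 20.5% of the neighbours. Taken by same-numbered arrays, Bex minus Ctrl was -0.87 and -1.08 (log2) in Mcm6, -0.76 and -0.996 in Sesn1, and -0.62 and -0.52 in Ccna2. Mcm6 was further below Ctrl than Ccna2 by 0.25 in the first of these pairs and by 0.56 in the second on the log2 scale. The pairing rests on the array numbers alone, so these are not 2 independent repeats. Of the 1000 clusters nearest in level, 0.6% were as low as Mcm6 in difference, 0.5% as low as Sesn1 and 1.8% as low as Ccna2.

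Likeness of pattern was measured as the Euclidean distance between the 4 log2 values of 2 genes, each centred on its own mean, over the 535 other genes with a single symbol in the authors' deposited table. Sesn1 was the fourth nearest gene to Mcm6 (distance 0.0925), and Mcm6 was the third nearest to Sesn1. Ccna2 was only the 162nd nearest to Mcm6 (0.448) and the 147th nearest to Sesn1 (0.378). Nearest to Mcm6 were Mr1, which presents metabolites to certain T cells (0.0752), Rnd3 (0.0843), and Fkbp5, a co-chaperone of the glucocorticoid receptor (0.0877), with Cdc42ep5, an effector of Cdc42, next after Sesn1 (0.0964). Nearest to Sesn1 were Col4a1, a basement membrane collagen (0.0584), and Il18, a cytokine gene (0.0727), with Sdpr, a caveola protein gene (0.0954), and Col12a1, a fibril-associated collagen (0.115), after Mcm6. Nearest to Ccna2 were the surface protein gene Ly6a (0.0186), the interleukin receptor gene Il4ra (0.0250), Fam54a (0.0266), Tmem123 (0.0350) and Gypc, the glycophorin C gene (0.0460). Log2 differences of these neighbours ran from -1.06 in Fkbp5 to -0.56 in Gypc. As 4 arrays give little to tell patterns apart, nearness here mostly reflects a difference of similar size.

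**Figure D4:**
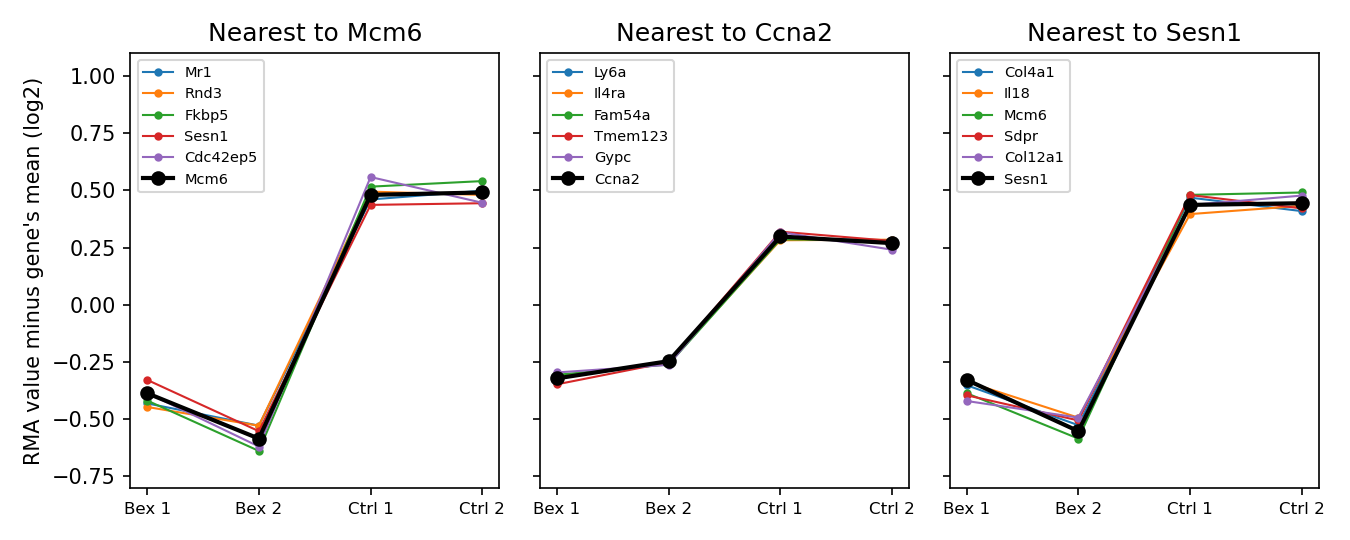
RMA value minus the gene's own mean over 4 arrays (log2) on each array for Mcm6, Ccna2 and Sesn1 (black) and the 5 nearest genes of each (coloured); lines only join the points of a gene. The panels of Mcm6 and Sesn1 share a step of similar height and a lower second Bex array, and the step of Ccna2 is smaller.

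The genes around the 3 were taken from 8 lists of cell cycle, arrest and stress pathways, which hold 263 genes. Only genes in the authors' deposited table can be named here, and 27 of the 263 were, that is, the 3 genes and 24 others, of which 16 were lower and 8 higher with Bex. The limma fit over all clusters passed 0 of the 24, and the variance-trend fit passed 10 lower and 5 higher ones, beside 0.439% of all clusters called lower and 0.762% called higher. All 24 passed the cutoffs of the authors' deposited table on these arrays, so the counts are no independent evidence of a direction. The single-symbol genes of that table were 200 lower and 336 higher.

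On the side of division, few genes could be named. Of 50 genes of replication licensing and the fork Mcm6 was the only one. The other 49, among them the remaining Mcm genes, had no single-symbol row in the authors' deposited table, which was cut at 1.5-fold. Their values were not analysed here. Of 33 cyclins, cyclin-dependent kinases and E2F genes there were 2, Ccna2 and Ccnd1, and of 40 genes of mitosis there were 0. Ccnd1, whose product cyclin D1 relays growth signals to the retinoblastoma protein, had values of 7.91 and 8.14 (log2) on the Bex arrays, against 8.87 and 8.71 on the Ctrl arrays. The groups did not overlap, and the Bex arrays stood further apart than in Ccna2. The log2 difference was -0.76 ± 0.13 (SE, n = 2 each), or 59.0% of the Ctrl signal, and it did not pass the variance-trend fit. Both named cyclin transcripts thus had lower mean values with Bex.

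From the list of 26 inhibitors and arrest genes 2 could be named, Sesn1 and Gas6, and both were lower. Gas6, a secreted ligand of the Axl receptor family, was first found in growth-arrested cells, which does not make its value a measure of arrest. Gas6 had values of 5.96 and 5.99 (log2) on the Bex arrays, against 7.74 and 7.77 on the Ctrl arrays. It showed a larger difference than Sesn1, -1.78 ± 0.08 (SE, n = 2 each), with almost no spread within either group.

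Genes known as p53 targets went both ways. Of 40 listed, 6 could be named, with Sesn1 and Sulf2 lower and Plk3, Ddit4, Tnfrsf10b and Gdf15 higher, and a median log2 difference of 0.73, beside 0.67 over the authors' deposited table, from which they were drawn, and -0.01 over all clusters. Plk3, a stress-responsive kinase, had values of 9.86 and 9.72 (log2) on the Bex arrays, against 8.07 and 8.03 on the Ctrl arrays, a difference of 1.75 ± 0.09 (SE, n = 2 each). Gdf15, a secreted stress cytokine, differed by 0.78 ± 0.11, and Tnfrsf10b, a death receptor, by 0.67 ± 0.11, which did not pass the variance-trend fit. Sulf2, an enzyme that trims sulphate from heparan chains, differed by -1.34 ± 0.14. Sesn1 thus lay in the smaller part of this list by direction. Lower genes were also the smaller part of the authors' deposited table, with 200 lower and 336 higher single-symbol genes.

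Genes known as FoxO targets were lower in 4 of the 6 that could be named of 34, with a median log2 difference of -0.70, beside the same 0.67 and -0.01. The lower ones were Sesn1, Fbxo32, Txnip and Cav1. Fbxo32, a ubiquitin ligase of muscle atrophy, had values of 9.18 and 9.13 (log2) on the Bex arrays, against 10.00 and 9.78 on the Ctrl arrays, and its difference of -0.74 ± 0.11 (SE, n = 2 each) did not pass the variance-trend fit. Txnip, the thioredoxin inhibitor, differed by -0.67 ± 0.08, and Cav1, the main caveola protein, by -1.91 ± 0.14. Higher were the other atrophy ligase, Trim63, at 0.79 ± 0.10, and the muscle growth inhibitor Mstn at 1.07 ± 0.19, and neither passed. Trim63 and Fbxo32, often measured together as atrophy genes, lay on opposite sides.

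Regulators of TORC1, the complex that sestrins restrain, gave 3 named genes of 40, with Sesn1 and Deptor lower and Ddit4 higher. Deptor, a subunit that inhibits the complex, had values of 8.25 and 8.41 (log2) on the Bex arrays, against 8.96 and 8.97 on the Ctrl arrays, a difference of -0.64 ± 0.10 (SE, n = 2 each) that did not pass the variance-trend fit. Ddit4, which also restrains TORC1 under stress, had values of 10.35 and 10.22 on the Bex arrays, against 9.33 and 9.42 on the Ctrl arrays, a difference of 0.91 ± 0.10. The named inhibitors of TORC1 were therefore split in direction.

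The list in which Sesn1 had most company was that of glucocorticoid-responsive genes, with 15 of 30 named, 11 lower and 4 higher. The median log2 difference was -0.74, beside 0.67 over the authors' deposited table and -0.01 over all clusters. The lists were chosen with earlier results of these data known, so the number named in this list is no independent evidence. The variance-trend fit passed 7 of the lower ones, Sesn1 among them, and 3 of the higher ones, beside 0.439% of all clusters called lower and 0.762% called higher. With 1 array left out it passed fewer of the genes that all lists add to the 3, as it did of all clusters. Fkbp5 had values of 8.08 and 7.86 (log2) on the Bex arrays, against 9.01 and 9.03 on the Ctrl arrays, a difference of -1.06 ± 0.11 (SE, n = 2 each). Tsc22d3, an anti-inflammatory protein gene induced by glucocorticoids, had values of 9.78 and 9.89 on the Bex arrays, against 10.76 and 10.65 on the Ctrl arrays, a difference of -0.87 ± 0.09. The differences of Sesn1 and Tsc22d3 were thus of like size. Lower as well were Errfi1, a brake on the epidermal growth factor receptor (-1.27 ± 0.09), the glutamine synthetase gene Glul (-0.77 ± 0.10), and the acute-phase genes Saa3 (-2.40 ± 0.25) and Orm1 (-2.46 ± 0.11). The kinase gene Sgk1 (-0.68 ± 0.12), the transcription factor gene Cebpd (-0.60 ± 0.10), the protease inhibitor gene Timp3 (-0.73 ± 0.12) and Fbxo32 were lower without passing. Of the higher ones, Ddit4 passed and Trim63 did not. The others were the lipase inhibitor Angptl4 (0.95 ± 0.09) and the cyclooxygenase Ptgs2 (1.38 ± 0.14). The list was not split by the direction in which glucocorticoids act on each gene. Fbxo32, Trim63, Ddit4 and Sesn1 are also in lists above, so the lists are not separate evidence.

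**Figure D5:**
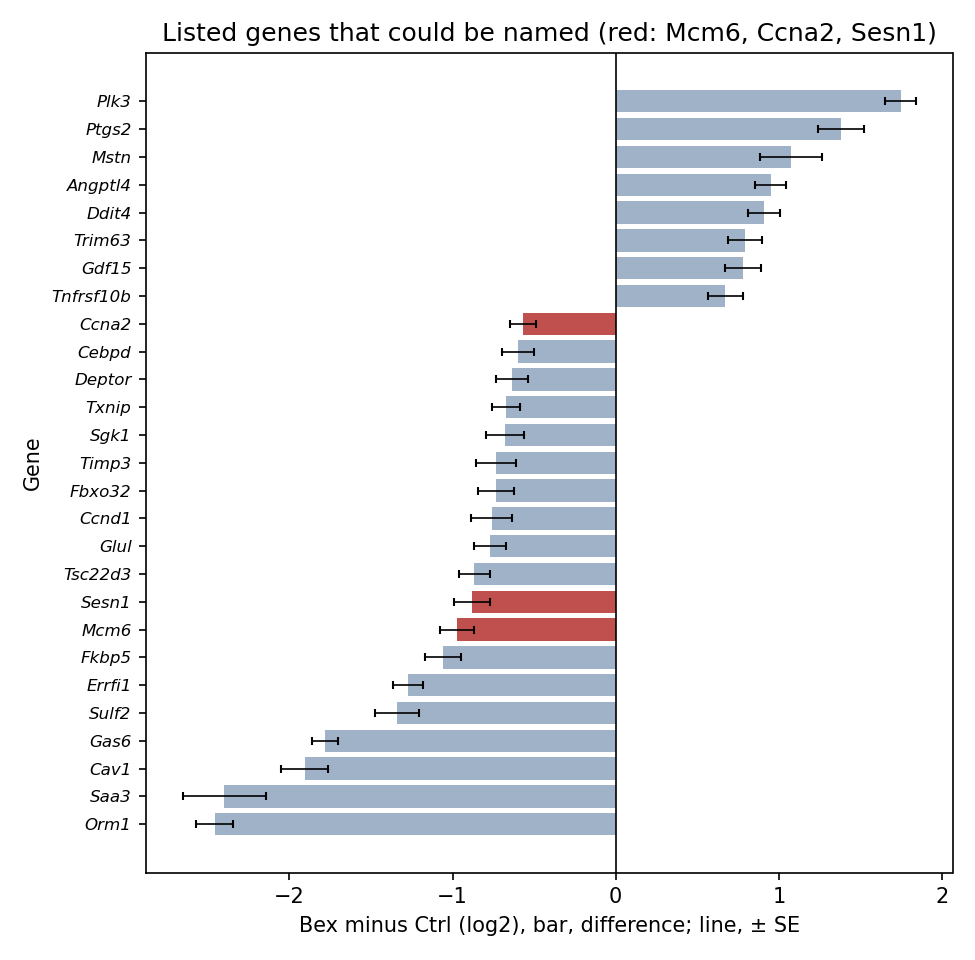
Bex minus Ctrl (log2) for the 27 genes of the 8 lists that could be named, sorted by size; bars are differences, lines ± SE of the limma fit with 2 arrays a group, and red bars are Mcm6, Sesn1 and Ccna2. Of the 27, 19 lie below 0 and 8 above, and Orm1 is the lowest at -2.46 and Plk3 the highest at 1.75.

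Markers of other states of the cells, as far as they could be named, also differed between the groups. The limma fit over all clusters passed 0 of them. Every marker that could be named had passed the cutoffs of the authors' deposited table on these same arrays. The counts below are therefore no independent evidence, and the shares over all clusters come from an unselected set. Of 12 myotube markers 9 could be named and all 9 were higher with Bex, 7 of them passing the variance-trend fit (beside 0.762% of all clusters called higher), with a mean RMA value of 9.76 and 9.63 (log2) on the Bex arrays, against 8.49 and 8.33 on the Ctrl arrays. All 5 named of 10 adipocyte markers were higher and passed, with a mean of 9.16 and 9.29 on the Bex arrays, against 7.47 and 7.37 on the Ctrl arrays. Of 10 myoblast markers only Pax7 could be named, at 9.0003 and 9.0438 on the Bex arrays, against 9.66 and 9.58 on the Ctrl arrays, a difference that passed, and the other 9, among them Myod1, Myf5 and Des, were not analysed here. Of 10 fibroblast markers 4 were named, 3 lower (2 passing, beside 0.439% of all clusters called lower) and 1 higher without passing. Of 5 smooth muscle markers 2 were named, both lower and 1 passing. Of 7 macrophage symbols, among them Adgre1 and its older symbol Emr1, 1 was named, higher without passing. Of 5 endothelial markers 0 were named. The part of these shifts in the values of Mcm6, Ccna2 and Sesn1 was not tested.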

How the data were processed

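RNA from 4 samples of C2C12 cells was amplified with a Ribo-SPIA kit, biotin-labelled and put on mouse gene arrays from Affymetrix, as the labels' protocols say. The authors deposited log2 values from RMA (Expression Console, core exons), per the labels. RMA equalises the arrays, and a change shared by most transcripts is therefore lost. A second deposited table holds log2 averages, a signed fold change used as a score, and p-values and FDR p-values per cluster, per the file headers. The submitters' processing notes name Transcriptome Analysis Console. Software versions and the genome build were not given in the sources used here.

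Arrays were grouped by title, and no 2 of them were duplicates, since a pair shared at most 58 identical values of 35557. Bex minus Ctrl was fitted over all clusters with limma 3.58.1 (lmFit, eBayes) in R 4.3.3, without filter or covariates, with Benjamini-Hochberg adjustment at 0.05. The fits were also run on simulated arrays whose spread was shuffled across clusters. That simulation has no tie of spread to level, so it cannot decide between the plain and the variance-trend fit. Standard errors are limma's moderated ones. Clusters were named through the authors' deposited table alone, where 14 of 559 had no single symbol. For a gene with several clusters the one of highest mean was used. The genes and lists were chosen with earlier results of these data known. Named were the 3 genes, every listed gene in that table, and the 5 genes nearest in pattern to each. Promoter letters were searched on both strands in RefSeq windows. Alternatives were a variance trend, a replicate block, removal of dim or low-numbered clusters, other scalings, a looser threshold, the authors' averages and each array left out. Lists, sequences and plots used Python 3.11.15 (matplotlib 3.10.9, scipy 1.17.1, numpy 2.4.6, pandas 2.3.3). The number of arrays limits the precision of every value.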

Additional observations from a re-analysis of the deposited data

How the results depend on the processing

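Mcm6, Ccna2 and Sesn1 stayed lower with Bex in every setting run. Leaving out each array in turn, the log2 difference ran from -1.07 to -0.87 in Mcm6, from -0.99 to -0.77 in Sesn1 and from -0.61 to -0.53 in Ccna2. The averages of the authors' deposited table put Ccna2 at -0.61, against -0.57, a shift about the size of its pooled SD (0.0404) and under its SE (0.0818). They put Mcm6 at -0.89, against -0.97, and Sesn1 at -0.84, against -0.88, so Ccna2 was not alone in shifting. The cause of these shifts was not tested. The count of called clusters, 0, became 427 with a variance trend, 105 (82 higher, 23 lower) without the 30% of clusters of lowest mean, 297 (202 higher, 95 lower) without 6669 clusters numbered lower than any in the authors' deposited table, and 80 (59 higher, 21 lower) at an adjusted p of 0.1. It was 0 after a median shift, after another quantile normalization and without any 1 array. With trend and an array left out together, an alternative chosen after seeing the data, it was between 0 and 32. The single array of a group is then assumed to vary like the other group. Of the 24 other listed genes the trend fit passed 15, beside 427 of 35557 clusters. The fit without dim clusters passed 5, beside 105 of 24890, and the fit without low IDs 13, beside 297 of 28888. All 24 had passed the cutoffs of the authors' deposited table on these arrays, so these counts are no independent evidence. The trend fit without 1 array passed fewer of them, as of all clusters.

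With the replicate number as a block the count was 0 as well, and the differences of the 3 genes were the same by construction. Same-numbered arrays deviated from their group means with a correlation of 0.0079 across clusters, so the paired fit rests on the number alone.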

Other observations

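Among the 200 lower single-symbol genes that the authors' deposited table holds, 140 had a RefSeq window. Of these 0.714%, Mcm6 alone, held the E2F letters in the 250 bases before a start. Of the 336 higher genes 248 had a window, and 0 held the letters. Among all 27025 genes with a window 0.759% held them, so the share among the lower genes was near that of all genes. This count was made after the Mcm6 window was seen and has no test. Ccna2 is not in this count.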
